A study of Homo sapiens with 4 samples.

Results

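The regions described are the clusters of an ADAR binding experiment that fall in human microRNA genes other than those hosted by MIR17HG, which makes the miR-17-92 microRNAs. A cluster is a stretch of RNA where the authors found reads piled up, whether or not it was enriched over input, and it counted as a member when its midpoint lay in the span of a microRNA gene in RefSeq GRCh38.p14. Of 1907 such genes, 339 held a cluster in replicate 1 and 116 in replicate 2. These were 423 of the 534161 clusters of replicate 1 and 126 of the 155848 clusters of replicate 2. Of the 1717 peaks in the authors' reproducible list, which combines the replicates, 5 lay in 3 of these genes. The 6 microRNA genes inside MIR17HG were left out.

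The libraries came from untreated K562 cells, an established human line from a chronic myeloid leukaemia that expresses erythroid genes, by enhanced crosslinking and immunoprecipitation (eCLIP). RNA and protein were joined with 254 nm ultraviolet light, the RNA was trimmed with RNase I, and an antibody against ADAR1 pulled down the complexes. There were 2 IP libraries and 2 input libraries made with no antibody, numbered as replicates 1 and 2. The labels do not say whether the replicates were separate cultures, and the differences between them may be technical. All folds are the authors' log2 of IP over input, 1 value per cluster and replicate. No test across replicates was made for a single site, since a two-sided exact sign-flip test over 2 replicates cannot give a p below 0.5. A cluster is called enriched here if its log2 fold and its −log10 p are each 3 or more.

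A microRNA begins as a hairpin in a longer primary transcript, often an intron of a host gene. Drosha and DGCR8 cut the hairpin out, Dicer removes its loop, and an Argonaute protein keeps the 5′ arm (5p) or the 3′ arm (3p) as the mature microRNA, whose seed near the 5′ end pairs with target messages. ADAR1 converts adenosine to inosine in double-stranded RNA. Hairpins of this kind are known ADAR substrates, and editing can alter their processing or their seed.

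The MIR378A hairpin is shown first because it had a reproducible peak and was covered end to end by enriched clusters in each replicate. Capitals mark the bases under an enriched cluster, written 5′ to 3′ from RefSeq GRCh38.p14. The hairpin lies at chr5:149732825-149732890 on the plus strand.
MIR378A: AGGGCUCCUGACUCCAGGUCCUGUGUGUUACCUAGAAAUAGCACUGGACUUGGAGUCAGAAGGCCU

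The MIR3157 hairpin, at chr10:96064315-96064399 on the minus strand, is shown because its enriched clusters in the replicates covered nearly the same stretch, from the loop through the 3p arm.
MIR3157 in replicate 1: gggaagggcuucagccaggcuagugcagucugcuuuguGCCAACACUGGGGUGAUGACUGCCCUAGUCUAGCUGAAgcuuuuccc
MIR3157 in replicate 2: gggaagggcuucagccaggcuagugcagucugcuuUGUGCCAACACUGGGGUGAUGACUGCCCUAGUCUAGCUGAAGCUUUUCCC

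The next hairpins had enriched clusters in replicate 1 and had no cluster in replicate 2. They are shown because they differ in how much of the hairpin the clusters covered.
MIR103A2, chr20:3917494-3917571, plus strand: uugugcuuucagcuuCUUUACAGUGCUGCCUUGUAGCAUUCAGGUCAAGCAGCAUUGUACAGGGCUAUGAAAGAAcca
MIR224, chrX:151958578-151958658, minus strand: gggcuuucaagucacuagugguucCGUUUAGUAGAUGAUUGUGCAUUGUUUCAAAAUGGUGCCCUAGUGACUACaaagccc
MIR25, chr7:100093560-100093643, minus strand: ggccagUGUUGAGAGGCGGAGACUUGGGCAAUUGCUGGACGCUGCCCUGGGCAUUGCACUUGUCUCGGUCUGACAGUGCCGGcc
MIR27A, chr19:13836440-13836517, minus strand: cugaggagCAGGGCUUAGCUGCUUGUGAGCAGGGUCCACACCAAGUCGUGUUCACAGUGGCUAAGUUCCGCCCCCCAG
MIR24-2, chr19:13836287-13836359, minus strand: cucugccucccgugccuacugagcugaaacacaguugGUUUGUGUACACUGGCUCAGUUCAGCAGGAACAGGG
MIR16-2, chr3:160404745-160404825, plus strand: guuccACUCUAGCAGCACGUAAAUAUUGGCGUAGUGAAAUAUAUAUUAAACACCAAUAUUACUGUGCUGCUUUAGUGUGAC
MIR15B, chr3:160404588-160404685, plus strand: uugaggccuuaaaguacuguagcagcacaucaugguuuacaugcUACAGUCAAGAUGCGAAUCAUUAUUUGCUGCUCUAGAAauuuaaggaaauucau

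Mature microRNAs are grouped by seed below, with the seed (bases 2 to 8) in capitals. Each group with more than 1 name holds products of different enriched hairpins that share a seed.
miR-15b-5p: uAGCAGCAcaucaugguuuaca
miR-16-5p, from MIR16-1 and MIR16-2: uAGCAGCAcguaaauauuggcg
miR-106b-5p: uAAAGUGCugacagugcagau
miR-93-5p: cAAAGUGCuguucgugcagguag
miR-21-5p: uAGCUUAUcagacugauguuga
miR-590-5p: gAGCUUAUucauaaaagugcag
miR-103a-3p, from MIR103A1 and MIR103A2: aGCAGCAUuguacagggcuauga
miR-23a-3p: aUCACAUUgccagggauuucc
miR-27a-3p: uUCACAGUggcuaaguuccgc
miR-24-3p: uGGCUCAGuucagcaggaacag
miR-25-3p: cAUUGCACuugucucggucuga
miR-378a-3p: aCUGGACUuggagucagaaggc

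MicroRNA genes held enriched clusters in each replicate. In replicate 1, 71 of the 423 member clusters (16.8%) were enriched, in 52 genes at 46 separate loci, while 1.39% of all clusters of that replicate were. In replicate 2, 25 of 126 (19.8%) were enriched, in 23 genes at 20 loci, while 12.8% of all clusters were. The median log2 fold of the members was 1.50 in replicate 1, where that of all clusters was 0.07, and 2.18 in replicate 2, where it was 1.85. These are descriptions, and no test was made of the members as a set. The median width of the members was 41 bases in replicate 1 and 56.5 bases in replicate 2.

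Other small RNA genes, counted the same way, gave other values. In snoRNA genes, whose products guide RNA modification, enriched clusters numbered 2 of 692 in replicate 1 (0.289%) and 0 of 372 in replicate 2. In snRNA genes, the RNAs of the spliceosome, they numbered 7 of 67 in replicate 1 (10.4%) and 2 of 34 in replicate 2 (5.88%). In tRNA genes they numbered 30 of 146 in replicate 1 (20.5%) and 0 of 80 in replicate 2. The differences between classes were not tested. Among the members themselves, 5 genes overlapped a snoRNA gene: MIR1248, MIR1291, MIR3651, MIR664A and MIR664B. Their 10 clusters in replicate 1 ran from −5.22 to −1.43 with a median of −2.34, and their 6 clusters in replicate 2 ran from −3.85 to −0.55, so each was lower in IP than in input.

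The libraries carried the marks of K562 cells. All 8 erythroid and K562 genes looked at, among them GATA1 and the fetal globins HBG1 and HBG2, held clusters in each replicate, and 0 of 8 hepatocyte genes did. That check was made because the labels' protocol names HepG2, a liver line, beside K562. Total reads are not stated, but the folds and p-values fix whole IP and input reads, and these put IP depth at 3.33 times input in replicate 1 and at 0.553 times input in replicate 2. Behind the enriched members stood 38 to 301 IP reads in replicate 1 (median 83) and 9 to 115 in replicate 2 (median 22). The input was thin: its median was 1 read in replicate 1 and 2 reads in replicate 2, and 40 of 71 and 12 of 25 enriched members had 1 input read. Whether 1 stands for 0 there is not known. Intervals below are exact (Clopper-Pearson) 95% intervals on these reads and cover counting error only.

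Most microRNA genes with an enriched cluster had it in 1 replicate only. The share of enriched sites found in both was below that of all clusters counted from replicate 1 and above it counted from replicate 2. An enriched cluster was found in 65 genes in either replicate and in 10 genes at 8 loci in both. Of the 102 microRNA genes with a cluster in both replicates, that is 9.8%, and over all 13247 genes with a cluster in both it was 13.8%. The spans differ widely, at a median of 85 bases for the microRNA genes and 29764 bases for all genes. Site by site, 9 of 71 enriched members of replicate 1 (12.7%) were overlapped on the same strand by an enriched cluster of replicate 2, while 41.9% of all enriched clusters of replicate 1 were. In the other direction it was 9 of 25 (36.0%), while it was 14.0% of all enriched clusters of replicate 2. Of the 52 genes enriched in replicate 1, 29 (55.8%) had no cluster in replicate 2, as had 237 of all 339 microRNA genes with a cluster in replicate 1 (69.9%). Of the 23 enriched in replicate 2, 1 (MIR663B) had none in replicate 1, as had 14 of all 116 (12.1%). Replicate 2 holds fewer clusters in all.

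**Figure D1:**
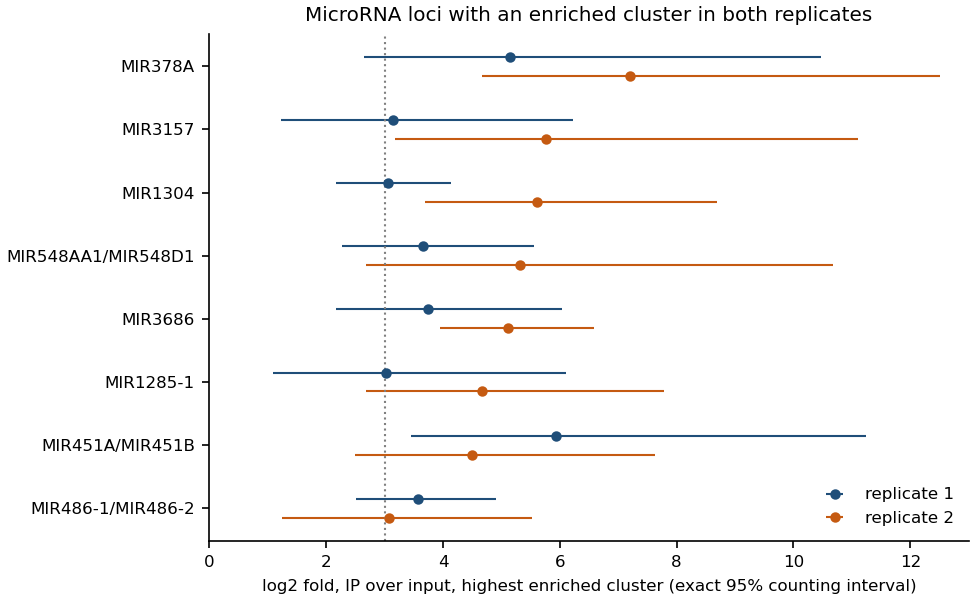
Log2 fold of IP over input (x axis) for the highest enriched cluster at each of the 8 loci enriched in both replicates (y axis). Points are the authors' folds, bars are exact 95% counting intervals, and the dotted line marks the threshold of 3; at 6 of the 8 loci the replicate 2 point lies above the replicate 1 point, and at every locus the intervals of the replicates overlap.

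MIR378A had the highest replicate 2 fold among the loci enriched in both replicates, and the second highest in replicate 1. Its hairpin lies inside PPARGC1B, which encodes a transcriptional coactivator of mitochondrial genes, and its microRNAs are known for roles in metabolism. In replicate 1 its 3 clusters had 58, 118 and 118 IP reads, each against 1 input read, and log2 folds of 4.12, 5.15 and 5.15. The last pair has identical reads, so neighbouring clusters in a hairpin are not independent. In replicate 2 its 2 clusters had 33 and 81 IP reads, each against 1 input read, and log2 folds of 5.90 and 7.19. The interval of the highest fold was 2.64 to 10.46 in replicate 1 and 4.68 to 12.52 in replicate 2, so the replicates overlapped. The reproducible list held 2 touching peaks there, chr5:149732806-149732852 at 4.99 and chr5:149732853-149732878 at 6.19. The hairpin was not the end of the signal: the next clusters, which start within 50 bases of its 3′ end, had 5.86 in replicate 1 and 7.61 in replicate 2. Farther out, between 50 and 1000 bases from the span, the highest fold was 3.99 in replicate 1 and 0.85 in replicate 2.

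MIR451A, the erythroid microRNA that matures through Argonaute 2 without Dicer, was enriched in each replicate. Its span at chr17:28861369-28861440 nearly equals that of MIR451B, annotated in the same place, and they are counted as 1 locus. Replicate 1 had a single cluster there with 204 IP reads against 1 input read, a log2 fold of 5.94 (interval 3.44 to 11.25), the highest of any member in that replicate. Replicate 2 had 2 adjacent clusters, with 25 and 24 IP reads against 2 input reads each, and folds of 4.50 and 4.44. MIR144, the erythroid microRNA made from the same primary transcript, was measured in replicate 1 only, at 2.70 with 65 IP reads against 3 input reads. That fold is under the threshold, and its interval, 1.09 to 5.02, overlaps that of MIR451A.

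**Figure D2:**
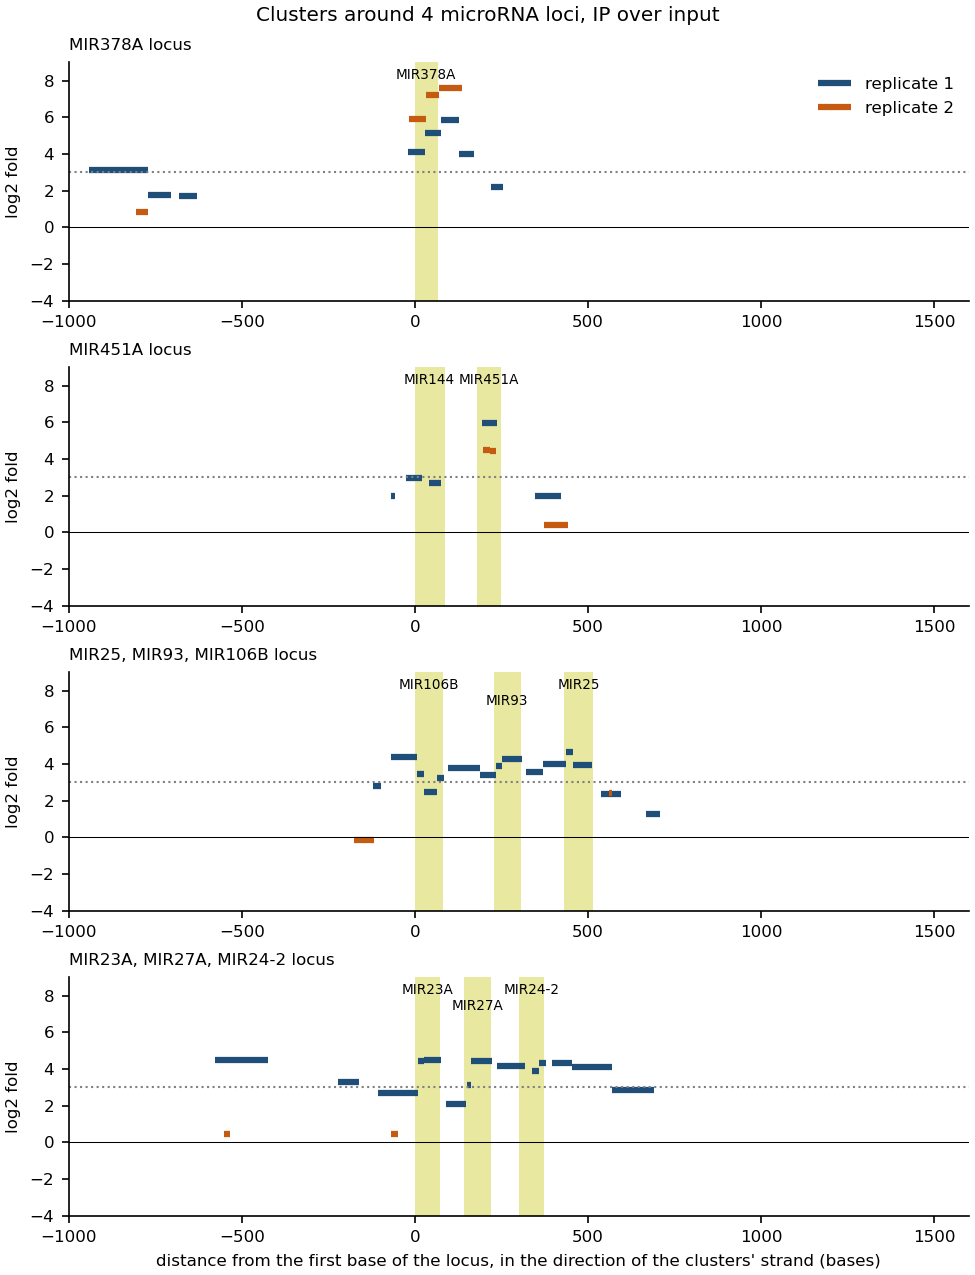
Log2 fold of IP over input (y axis) of every cluster near 4 microRNA loci, by distance in bases from the first base of the locus along the clusters' strand (x axis). Shaded bands are microRNA spans, bars are clusters of each replicate, and the dotted line marks the threshold of 3. MIR378A and MIR451A reached 5.15 and 5.94 in replicate 1 and 7.19 and 4.50 in replicate 2, while replicate 2 had no cluster inside the hairpins of the lower panels.

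The other loci enriched in both replicates were of mixed kind. MIR1304, inside TAF1D, a subunit of an RNA polymerase I factor, had 54 and 102 IP reads against 2 and 10 input reads in replicate 2, at folds of 5.61 and 4.20. In replicate 1 its 3 clusters had 278, 361 and 147 IP reads against 10, 18 and 23 input reads, at 3.06, 2.59 and 0.94, so 1 of the 3 was enriched. The reproducible list gave it 2 peaks at 4.34 and 3.42. MIR3686, inside the long noncoding RNA gene CCDC26, had 134 IP reads against 3 input reads in replicate 1 (3.75, interval 2.17 to 6.04). In replicate 2 it had 115 against 6 (5.11, interval 3.95 to 6.59), and its reproducible peak had 4.69.

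MIR548D1 and MIR548AA1, which share a span inside ATAD2, had 168 IP reads against 4 input reads in replicate 1 (3.66) and 22 against 1 in replicate 2 (5.31). MIR3157, inside ENTPD1-AS1, had 59 against 2 (3.15) and 30 against 1 (5.76). MIR1285-1, inside KRIT1, had 54 against 2 (3.02) and 28 against 2 (4.66). All of these were higher in replicate 2, each with overlapping intervals. MIR486-1, an erythroid microRNA inside ANK1, the gene of the red cell membrane protein ankyrin, had 277 IP reads against 7 input reads in replicate 1 (3.57) and 14 against 3 in replicate 2 (3.08). These clusters did not overlap: where the replicate 2 cluster lay, replicate 1 had a cluster at 1.55, so this was the 1 gene of the 10 with no enriched clusters that overlap between replicates. MIR486-2 overlaps it and shared that replicate 2 cluster, but its own highest cluster in replicate 1 had 2.14. Reads of such overlapping or near-identical genes, MIR548 copies included, could have been shared between them, and how the authors placed them is not stated.

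Many of the named genes of replicate 1 belong to families and polycistrons, whose hairpins sit side by side in a transcript. Inside MCM7, a subunit of the replication helicase, lie MIR25, MIR93 and MIR106B, relatives of the miR-17 family outside MIR17HG. MIR25 had 84 IP reads against 1 input read (4.66, interval 2.14 to 9.98), MIR93 had 130 against 2 (4.29, 2.41 to 7.35) and MIR106B had 110 against 3 (3.46, 1.88 to 5.76). The 3 intervals overlap, so an order among the hairpins was not detectable at this depth. The stretches between the hairpins were enriched too, at 3.80 between MIR106B and MIR93 and at 3.59 and 4.01 between MIR93 and MIR25, and a cluster at the 5′ edge of MIR106B had 4.40. Beyond 50 bases from all of them and within 1000, the highest fold was 2.82. Of the 9 relatives listed, 5 had a cluster in replicate 1 and 3 were enriched, while 15.3% of all microRNA genes with a cluster were. Not enriched were MIR92A2 at 1.44 and MIR19B2 at 0.59, and 0 of the 9 had a cluster in replicate 2, where 6.08% of all 1907 microRNA genes had one.

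MIR23A, MIR27A and MIR24-2, made from the transcript MIR23AHG, gave nearly equal values. They had 74 IP reads against 1 input read (4.48), 147 against 2 (4.47) and 68 against 1 (4.35). Their surroundings were as high, since a cluster of the same strand 50 to 1000 bases away reached 4.48. All 3 members of that list with a cluster were enriched in replicate 1, while 15.3% of all microRNA genes with a cluster were. These 3 come from 1 transcript and are not independent. In replicate 2, 0 of the 7 listed had a cluster. The replicate 1 profile of the MIR23A locus shows enriched clusters beside the hairpins as well as in them. Not every cluster there was enriched: the cluster mostly between MIR23A and MIR27A had 2.07, and that at the 5′ edge of MIR23A had 2.70. The replicate 2 clusters near this locus had 0.44. Near MIR451A, clusters in and beside MIR144 had 2.70 and 2.98, and away from microRNA spans the highest fold was 2.00.

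The miR-15/16 family had 3 enriched hairpins in replicate 1 from a pair of host genes, and their 5p products share the seed printed above. Inside SMC4, a condensin subunit, MIR16-2 had 138 IP reads against 2 input reads (4.37) and MIR15B had 60 against 1 (4.17), while the highest fold nearby was 2.87. Inside DLEU2, a long noncoding RNA gene, MIR16-1 had 47 against 1 (3.82), and nearby it was −0.73. MIR16-1 and MIR16-2 make the same mature microRNA but differ outside it. MIR503 was the other listed member with a cluster, with 20 against 1 (2.59). Of all microRNA genes with a cluster in replicate 1, 15.3% were enriched. None of the 8 listed had a cluster in replicate 2.

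MIR103A2 and MIR103A1 lie inside PANK2 and PANK3, which encode pantothenate kinases of coenzyme A synthesis. MIR103A2 had 301 IP reads against 2 input reads (5.50, interval 3.63 to 8.55), the most IP reads of any enriched member of replicate 1. MIR103A1 had 38 against 1 (3.51, 0.95 to 8.85), the fewest. MIR103B2 and MIR103B1 are annotated in the same spans on the other strand, and the clusters lay on the strand of MIR103A2 and MIR103A1. On the X chromosome MIR224 had 182 IP reads against 1 input read (5.77, 3.28 to 11.09) and its neighbour MIR452 had 48 against 1 (3.85), inside GABRE, a GABA receptor subunit gene. MIR452 had a cluster in replicate 2 of 7 against 1 (3.66), whose −log10 p was 2.40, under the threshold.

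Of the 21 microRNA genes listed as erythroid or blood microRNAs, 12 had a cluster in replicate 1 and 5 were enriched, and 6 had one in replicate 2 with 3 enriched, at 2 loci. Of all microRNA genes with a cluster, 15.3% were enriched in replicate 1 and 19.8% in replicate 2. Besides MIR451A and MIR486-1, replicate 1 had MIR223, a myeloid microRNA, at 4.27 with 128 IP reads against 2 input reads. It also had MIR126, in the endothelial gene EGFL7, at 4.34 with 135 against 2, and MIR210, induced by hypoxia, at 3.84 with 95 against 2. MIR126 in replicate 2 had 5 against 1 (3.18, −log10 p 1.62). Near MIR126 and MIR210 the highest fold was 4.77 and 4.07, above the hairpins, whereas near MIR223 it was 2.27.

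Other leading hairpins of replicate 1 belong to none of the groups above. MIR4286, on chromosome 8 outside other gene spans, had 90 IP reads against 1 input read (4.76). MIR30D, inside ZFAT, had 5 short adjacent clusters with 83 to 88 IP reads against 1 input read, the highest at 4.73. MIR671, inside CHPF2, had 71 against 1 (4.42), and MIR33A, the cholesterol-related microRNA inside SREBF2, had 69 against 1 (4.37). MIR21, an abundant microRNA of many tumours whose span lies in that of VMP1, was enriched in 2 of its 3 clusters of replicate 1. These had 118 and 107 IP reads against 3 input reads each (3.56 and 3.42), the other had 180 against 7 (2.95), and its replicate 2 cluster had 7 against 3 (2.08). MIR1306, inside DGCR8, the gene of the protein that recognises hairpins for Drosha, had 179 against 6 (3.16).

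**Figure D3:**
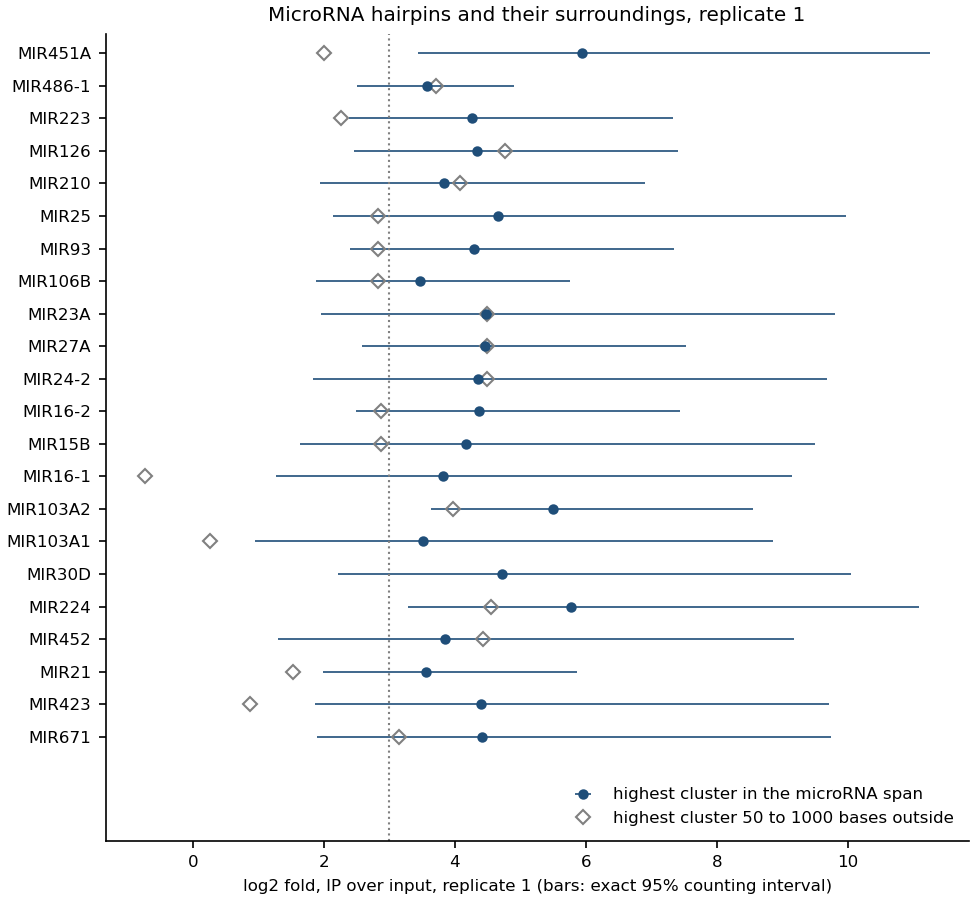
Replicate 1 log2 fold of IP over input (x axis) of the highest cluster in each of 22 enriched microRNA spans (filled points, with exact 95% counting intervals) and of the highest cluster 50 to 1000 bases outside on the same strand, leaving out clusters within 50 bases of any other microRNA span (open diamonds). The dotted line marks the threshold of 3. MIR30D had no such cluster outside; MIR451A stands at 5.94 beside 2.00, and MIR126 at 4.34 beside 4.77.

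Across all enriched genes, the hairpin was usually higher than the clusters 50 to 1000 bases away. In replicate 1, 49 of the 52 enriched genes had a cluster 50 to 1000 bases away on the same strand, and in 40 of the 49 the hairpin's highest fold exceeded every one of these. Clusters within 50 bases of any microRNA span, such as those between the MCM7 hairpins, were left out of these surroundings. Some of them were higher than the hairpin. Beside MIR378A such a cluster had 5.86 in replicate 1 and 7.61 in replicate 2, where the hairpin had 5.15 and 7.19. At the edge of MIR106B it was 4.40 in replicate 1, where the hairpin had 3.46. The median highest fold was 3.84 in those 49 spans and 2.35 outside them. Enriched clusters outside were found at 18 of the 49. In replicate 2, 14 of 23 genes had such a cluster, 13 of the 14 hairpins exceeded it, and the medians were 4.58 and 1.06. The hairpins were selected for being enriched and the surroundings were not, so these counts describe the loci and carry no test.

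Most of the 12 highest genes of replicate 2 were enriched in replicate 1 too and are described above. They were MIR378A, MIR451A, MIR1304, MIR3686, MIR3157, MIR1285-1, MIR548D1 and MIR548AA1. The others, not enriched in replicate 1, had 32 or fewer IP reads in replicate 2. MIR7851, inside ZCRB1, had 32 IP reads against 1 input read (5.85), and in replicate 1 it had 54 against 4 (2.02). MIR574, inside FAM114A1, had 15 against 1 (4.76), and in replicate 1 it had 27 against 3 (1.44). MIR663B had 14 against 1 (4.66). Of the 23 genes enriched in replicate 2, 13 were not enriched in replicate 1. Over the 102 genes with clusters in both replicates, the median of the highest fold was 2.05 in replicate 1 and 2.18 in replicate 2, and 61 of the 102 were higher in replicate 2.

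The MIR574 hairpin is printed because its enriched replicate 2 cluster covered both arms, of which the 5p arm is a run of GU repeats. It lies at chr4:38868032-38868127 on the plus strand.
MIR574: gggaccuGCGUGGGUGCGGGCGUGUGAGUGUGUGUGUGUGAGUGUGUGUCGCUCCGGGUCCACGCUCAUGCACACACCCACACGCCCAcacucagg

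Some microRNA genes with many recovered input reads were not enriched. They are not the lowest of the range, since clusters with a p listed as 0 give no reads and could not be chosen. MIR3651, at −3.33 in replicate 1, was one of these. In replicate 1 MIR3652, inside the chaperone gene HSP90B1, had 198 IP reads against 56 input reads, a log2 fold of 0.09 (interval −0.35 to 0.54). MIR4257 had 63 against 17 (0.16, −0.64 to 1.02). Both intervals include 0. MIR142, a blood cell microRNA whose precursor is a known editing substrate, had more IP reads than any enriched member, 370 against 16 input reads, at 2.80 (interval 2.08 to 3.62). In replicate 2 it had 25 against 15 (1.59, 0.61 to 2.62), so it was above input in each replicate without reaching a fold of 3. MIR186 had 153 against 7 in replicate 1 (2.72) and 12 against 12 in replicate 2 (0.85). MIR1273H and MIR612 were among those of highest input in replicate 2 that were enriched in neither replicate. They had 31 against 15 (1.90) and 14 against 12 (1.08) there, and MIR3916 had 89 against 14 in replicate 1 (0.93). MIR5685, enriched in replicate 1 only, had 41 against 14 in replicate 2 (2.40).

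Precursors known from the literature to be edited included enriched and not enriched hairpins. Of 25 such genes listed, 9 had a cluster in replicate 1 and 3 were enriched, namely MIR223, MIR27A and MIR423, while 15.3% of all microRNA genes with a cluster were. MIR423, inside NSRP1, had 70 IP reads against 1 input read (4.40). With a fold just under 3 were MIR142 at 2.80 and MIR151A at 2.76 with 45 against 2. MIR301A had 26 against 1 (2.97, interval 0.36 to 8.32), with a −log10 p of 1.94, also under the threshold. MIR22 had 12 against 1 (1.85). In replicate 2, 2 of the 25 had a cluster and 0 were enriched, MIR197 having 5 against 1 (3.18, −log10 p 1.62).

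The let-7 family, of 12 genes, had a cluster in 4 in replicate 1 and in 1 in replicate 2, and 0 were enriched. With 15.3% and 19.8% of all microRNA genes with a cluster enriched in replicates 1 and 2, counts this small are not a result about the family, nor are those of the next lists. MIRLET7A1 came closest in replicate 1 with 48 IP reads against 2 input reads (2.85). MIRLET7I had 22 against 2 in replicate 1 (1.73) and 8 against 1 in replicate 2 (3.85, −log10 p 2.80). Of the 5 members of the miR-130/301 family, 3 had a cluster in replicate 1 and 0 were enriched. Of 11 mirtrons, hairpins that splicing rather than Drosha releases, 5 had a cluster and 0 were enriched, the highest being MIR1229 with 20 against 1 (2.59). Over all 1907 microRNA genes, 17.8% had a cluster in replicate 1. Among microRNAs known from other tissues, clusters were found there in 2 of 5 liver genes, 2 of 9 muscle genes, 1 of 10 neural genes, 0 of 8 stem cell genes, 0 of 19 placental genes and 0 of 47 genes of the imprinted DLK1-DIO3 region. Of these only MIR9-1, a neural microRNA, was enriched, with 41 against 1 (3.62). The clusters in the muscle genes MIR1-2 and MIR133A1 and in the liver gene MIR194-1 lay on the strand opposite the gene. Where a gene had no cluster, RNA that is not made and RNA that ADAR did not bind cannot be told apart.

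Where RefSeq gave a hairpin sequence, and so the strand of the gene, nearly all enriched clusters lay on it. The strand of the gene was known in this way for 47 of the 71 enriched members of replicate 1, and 46 of the 47 lay on it. The exception was MIR5685, inside ELOVL5, a gene of the opposite strand. In replicate 2 it was 10 of 12, and the others were the pair of clusters in MIR610, inside KIF18A, again a gene of the opposite strand. Where microRNA genes are annotated on both strands, a cluster counted as on the gene's strand whichever strand it had. This held at MIR103A1, MIR103A2, MIR423 and MIR3688-2, all enriched in replicate 1. Genes with a mature sequence but no hairpin sequence were counted as of unknown strand. Among these, the enriched replicate 2 cluster of MIR4767 lay on the strand opposite its mature microRNA. Those of MIR1285-1, MIR1304, MIR4504, MIR5585 and MIR7851 lay on the strand of theirs. Over all members with a known strand it was 302 of 322 in replicate 1 and 80 of 90 in replicate 2. The span of another gene that is not a microRNA gene held 68 of the 71 and 25 of the 25 enriched members, on either strand. Among all members it was much the same, at 406 of 423 in replicate 1 and 124 of 126 in replicate 2. A gene known to lie on the strand of the cluster held 51 of the 71 and 20 of the 25 enriched members, which was not counted over all members. Intron or exon was not assigned.

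Within the hairpin, enriched clusters sat mainly toward the 3′ arm in replicate 1. Among 31 enriched hairpins with a known strand and sequence, a median of 60.7% of the bases was covered, and the bases past the hairpin's midpoint were covered more than those before it in 26, and less in 4. Where both arms are annotated, at least 50% of the 3p arm was covered in 28 of 29 and of the 5p arm in 13 of 29. MIR24-2 and MIR15B above show this, with nothing of the 5p arm in capitals, and in MIR224 28.0% of the 5p arm was covered. MIR3176 was 1 of the 4 with the reverse. Among the 211 hairpins of replicate 1 with clusters below the threshold, the same side prevailed in 140 and the 5′ side in 53. In replicate 2 the 9 enriched hairpins gave 5 against 2, while the 64 below the threshold gave 24 against 38. These counts rest on clusters that can extend past the hairpin, and they were not tested.

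**Figure D4:**
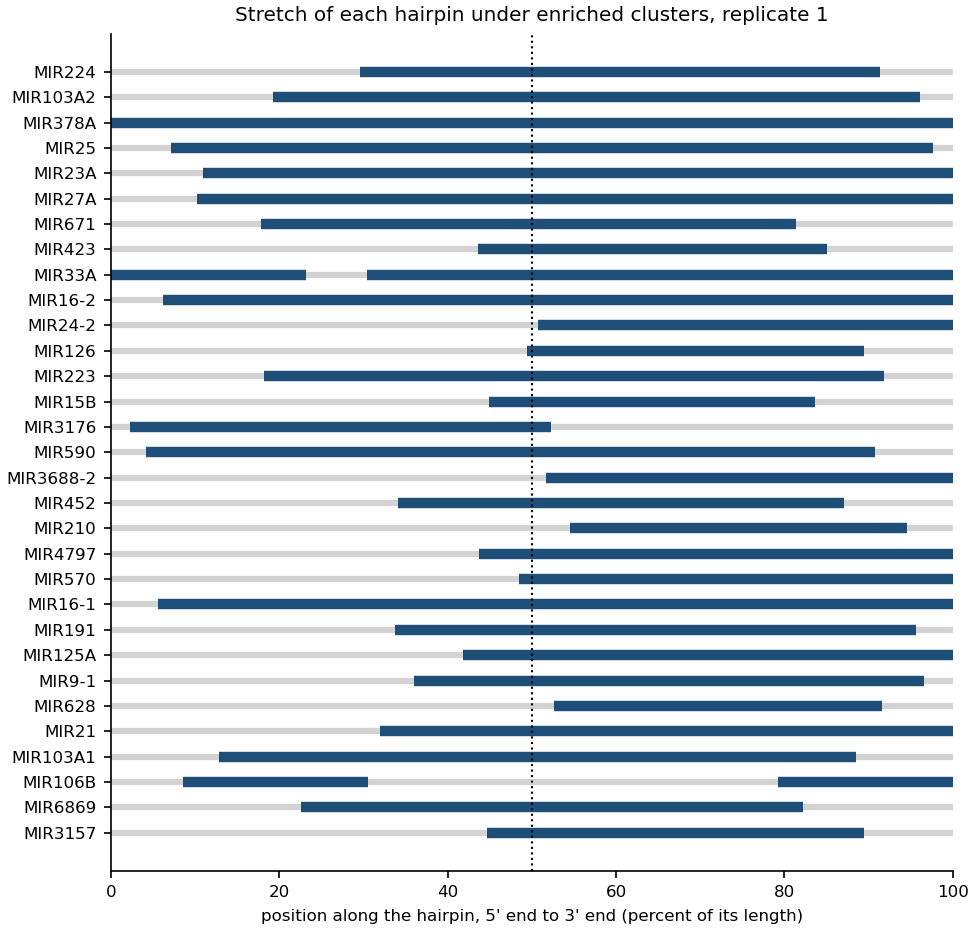
Stretch of each hairpin under enriched clusters in replicate 1 (dark bars) along its length from the 5′ end to the 3′ end in percent (x axis), for the 31 enriched hairpins with a known strand and sequence, ordered by fold with the highest on top. The dotted line marks the midpoint; in 26 of the 31 the bases to its right were covered more.

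Hairpin composition was described by energy, GC content and a triplet, with no test, for hairpins with clusters on their own strand. The predicted folding energy (RNAfold) had a median of −48.1 kcal/mol per 100 bases in the 31 hairpins enriched in replicate 1, −60.6 in the 9 enriched in replicate 2 and −45.2 in all 1554 hairpins of the sequence table. The median GC content was 52.1%, 65.6% and 52.2% in the same order. In hairpins with clusters below the threshold, the median energy was −48.6 in replicate 1 and −51.5 in replicate 2. Their median GC content was 54.2% and 48.3%. UAG, the triplet around the adenosine that ADAR enzymes are known to favour, was searched on the hairpin's strand. It was found in 20 of the 31 (64.5%), in 4 of the 9 (44.4%) and in 55.9% of all hairpins, and among hairpins with clusters below the threshold it was found in 58.3% in replicate 1 and 62.5% in replicate 2. A match is a description of the letters and not an edited site.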

How the data were processed

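The submitters' processing notes name cutadapt 1.9, STAR 2.4.0i and the builds hg19 and GRCh38. No source used here names the peak caller. The log2 fold and the −log10 p-value of each cluster are values of the authors' deposited peak lists, IP over input in 1 replicate, with −log10 p limited to 400. How the replicates were combined is not stated. Clusters were placed in RefSeq GRCh38.p14 gene spans by midpoint, with no annotation of exons. Strand came from the hairpins of the RefSeq sequence table (1554 of 1907 genes), and a gene with only mature sequences there was counted as of unknown strand.

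IP and input reads were recovered from fold and p, on the assumption that the fold found most often stands for 3 IP reads and 1 input read. The p was taken as an exact binomial test where a read number was under 5 and as a corrected chi-square otherwise. Of 1000 clusters checked in each list, 998 and 982 matched a single pair of reads (tolerance 0.004 in −log10 p, widened in proportion above 5). A p listed as 0 gives no reads, so these matches speak only for clusters with a p listed above 0. Among the members, reads were recovered for 295 of 423 clusters in replicate 1 and for 106 of 126 in replicate 2.

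Named genes were those with a reproducible peak, enriched in both replicates, among the 12 highest of a replicate or the 5 of most input reads without enrichment, and the enriched genes of 6 of the 15 gene lists (miR-17 relatives, let-7, miR-15/16, miR-23/27/24, erythroid and edited precursors). Some genes that this rule names are not reported here. Other genes named were chosen after their values were seen, as were the distances of 50 and 1000 bases. The members and lists were chosen with earlier results of these data known. Tools were python 3.11.15, pandas 2.3.3, scipy 1.17.1 and RNAfold 2.7.2.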

Additional observations from a re-analysis of the deposited data

How the results depend on the processing

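Of 28 alternative counts, 19 stayed within 1.5 times the reported count. Requiring a log2 fold of at least 4 left 31 enriched clusters of 71 in replicate 1 and 3 genes of 10 enriched in both replicates. Keeping clusters on the known strand of the gene left 46 in replicate 1, 10 of 25 in replicate 2 and 2 of 5 reproducible peaks. Most of this loss came from genes with no hairpin in the sequence table, whose strand was counted as unknown. MIR1304 was lost in this way, although its mature microRNA lies on the strand of its 2 reproducible peaks. Requiring a ratio of reads with a denominator of at least 2 in lowest terms left 19 in replicate 1 and 7 in replicate 2; the others reduce to a whole ratio, most often because they had 1 input read. Requiring the whole cluster inside the span left 8 in replicate 2. The 65 genes enriched in either replicate came to between 23 and 52 with 1 replicate left out: 23 without replicate 1 and 52 without replicate 2. No paired analysis was possible because these counts come from no test: each fold already sets the IP library of a replicate against its input, and over 2 such pairs an exact sign-flip test cannot give a p below 0.5.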
